A study of Homo sapiens with 20 samples.

Results

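The SGK genes encode serum- and glucocorticoid-regulated protein kinases, and 7 genes of this pathway were followed: the kinases SGK1, SGK2 and SGK3, the ubiquitin ligase gene NEDD4L, and FKBP5, TSC22D3 and NR3C1. They were taken by gene symbol, with the probe set of the highest mean where a gene had several. SGK1 was chosen by its measured signal in Rh30, which was higher with QC6352 and with a KDM4B hairpin, so its levels in those comparisons are described without a test. FKBP5, TSC22D3 and NR3C1 were chosen to look for a response of the glucocorticoid kind. Of the 7 genes, 6 had a named probe set, among 17687 genes in all. FKBP5 had none in the platform's gene table and was not analysed here.

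SGK kinases belong to the same family as AKT and recognise a similar phosphorylation motif. Their activity is switched on downstream of PI3K, by mTORC2 and the kinase PDPK1, while the amount of SGK1 is set largely by transcription of its gene, which serum, glucocorticoids, osmotic stress and several growth signals raise. Known substrates include NDRG1, forkhead factors of the FOXO family and NEDD4L, a ligase that removes sodium channels and other carriers from the cell surface and is held back when SGK1 phosphorylates it. NR3C1 encodes the glucocorticoid receptor, TSC22D3 encodes GILZ, a leucine zipper protein that is a classic target of the receptor, and FKBP5 encodes a co-chaperone that the receptor both binds and induces.

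The cells were Rh30 and Rh41, lines of alveolar rhabdomyosarcoma, a childhood tumour with features of skeletal muscle, and both carry a PAX3-FOXO1 fusion gene. Rh30 and Rh41 received QC6352, an inhibitor of the KDM4 histone demethylases, at 200 nM for 48 h or the vehicle DMSO, with 3 arrays per group in each line. Rh30 cells were transduced with a hairpin against KDM4B (shKDM4B) or a control hairpin (shControl) for 72 h, with 2 arrays each. Other Rh30 cells received an siRNA against KDM4C (siKDM4C) or a control siRNA (siControl) for 72 h, also with 2 arrays each. The labels name no glucocorticoid, no serum change and no second agent in any of the 8 groups, and the number of hairpins and siRNAs is not given in the sources used here. Each knockdown and the Rh30 drug groups share a single parental line, so the results in Rh30 are those of 1 line.

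Signals are on the deposited log2 scale, with 1 value per probe set on each of 20 Affymetrix Clariom S human arrays. Array medians lay between 6.72 and 6.75 in the 4 siKDM4C and siControl arrays, between 6.95 and 6.99 in the other 10 Rh30 arrays and between 7.22 and 7.25 in the 6 Rh41 arrays, and the median of 23 background probe sets lay between 3.64 and 4.01. Background below means that median, but the highest of the 23 lay between 7.09 and 8.05. SGK2 and SGK3 lay below that highest value on every array. In Rh30, so did KDM4B, KDM4C and, under DMSO, shControl and siControl, SGK1. For 10 Rh30 arrays the title and the sample name name different groups among QC6352, DMSO, siKDM4C and siControl. Among them, 1 array, siKDM4C replicate 2, has a title that reads shRNA against KDM4C, and it was grouped by its source name, which reads siKDM4C. All other groups follow the titles here, and calls by sample name are given beside many of the results that rest on those arrays. By sample name, the QC6352 arrays of Rh30 would have medians of 6.72, 6.97 and 6.99, and the DMSO arrays of Rh30 medians of 6.73 to 6.75. Which label is right was not tested. The Rh41 and hairpin arrays have no such conflict. KDM4B averaged 6.08 log2 in shKDM4B arrays and 7.02 log2 in shControl arrays (limma, adjusted p = 0.012). KDM4C lay at 6.25 and 6.32 log2 in siKDM4C arrays against 6.48 and 6.54 log2 in siControl arrays, a difference that did not pass. With siKDM4C none of 5 KDM4 genes, KDM4C among them, passed in limma, and 0 had an unadjusted p under 0.05, where 0.458% of all genes passed. KDM4C lay between 6.12 and 6.90 log2 in DMSO arrays of Rh30. The mean of 12 muscle lineage markers was 8.83 to 8.93 log2 in QC6352 arrays of Rh30 and 9.66 to 9.72 log2 in DMSO arrays of Rh30, and 9.22 to 9.29 log2 in QC6352 arrays of Rh41 against 9.29 to 9.35 log2 in DMSO arrays of Rh41. Among them, MYOG lay at 9.03 to 9.34 log2 with QC6352 against 11.72 to 11.82 log2 with DMSO in Rh30. By sample name, MYOG would lie at 11.82 and 9.06 log2 in siControl arrays and at 9.34 and 9.03 log2 in siKDM4C arrays. It would lie at 11.31, 11.72 and 11.76 log2 in QC6352 arrays of Rh30. By title, 6 of the 12 were lower with QC6352 in Rh30 and 1, PAX3, was higher (0.55 log2). Of all genes, 16.5% were lower and 19.9% higher. At most 2 of the 12 lay within 1 log2 of background in any group. The mean of 6 epithelial markers was 6.31 to 6.50 log2 in QC6352 arrays of Rh30 against 5.81 to 6.02 log2 in DMSO arrays of Rh30, with CLDN4 higher by 1.91 log2 (SE 0.13) and 2 of the 6 within 1 log2 of background under QC6352. CLDN4 was also higher with shKDM4B (limma, adjusted p = 7.89e-06), where the epithelial mean was 6.08 to 6.18 log2 against 5.80 to 5.82 log2 with shControl. The muscle marker mean was 9.24 to 9.28 log2 with shKDM4B against 9.55 to 9.65 log2 with shControl. There 5 of the 12 muscle markers were lower and 1, MYF5, was higher (1.15 log2), where 6.31% of all genes were lower and 5.26% higher. Blood, endothelial and fibroblast markers had array means of 4.67 to 4.97, 5.45 to 5.61 and 5.92 to 6.05 log2 with QC6352 in Rh30, against 4.57 to 4.67, 5.62 to 5.65 and 5.81 to 5.91 log2 with DMSO in Rh30. The part of these shifts in the results below was not tested. In bulk RNA, fewer cells of a type and less RNA per cell cannot be told apart.

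SGK1 lies on the minus strand of chromosome 6 at 134169256 to 134318112 (GRCh38.p14), and its probe set is annotated to 5 transcripts. SGK1 signal was 9.64, 9.22 and 9.26 log2 in the QC6352 arrays of Rh30, against 5.35, 5.51 and 4.92 log2 in the DMSO arrays of Rh30. Every QC6352 array lay more than 3 log2 units above every DMSO array, while the DMSO arrays stood only 1.30 log2 above background on average. The difference of the means was 4.11 log2 (SE 0.21), a 17.3-fold higher signal and the second highest difference of the 17687 genes.

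In shKDM4B arrays SGK1 was at 7.15 and 7.03 log2, against 5.59 and 5.18 log2 in shControl arrays. Both knockdown arrays were above both controls, and the difference was 1.70 log2 (SE 0.26), of rank 9 among all genes. The drug difference exceeded the hairpin difference by 2.41 log2 (SE 0.33), at unlike times (48 h and 72 h) and by unlike means of delivery. These values chose the gene and support nothing further.

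That choice used neither the Rh41 arrays nor the siRNA arrays, although the genes were picked with earlier results of these data known. SGK1 was at 9.07, 8.99 and 9.07 log2 in QC6352 arrays of Rh41, against 8.45, 7.89 and 8.17 log2 in DMSO arrays of Rh41. The groups did not overlap, and SGK1 rose by 0.87 log2 (SE 0.21; 95% interval 0.43 to 1.31; limma, adjusted p = 0.00583). The fold was 1.83, rank 224 among all genes. With Rh30 groups by sample name the same difference did not pass (adjusted p = 0.538), where the pooled spread includes the arrays in conflict, and in a fit of the Rh41 arrays alone it did (limma, adjusted p = 0.00297). Under DMSO the gene was at 8.17 ± 0.28 log2 in Rh41 (SD, n = 3), against 5.26 ± 0.30 log2 in Rh30 (SD, n = 3), a difference of 2.91 log2 given without a test. The drug response of Rh41 minus that of Rh30 was -3.24 log2 (SE 0.30), while the levels under drug were 9.04 ± 0.05 log2 in Rh41 and 9.37 ± 0.23 log2 in Rh30 (SD, n = 3 each).

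With siKDM4C, SGK1 was at 4.78 and 5.73 log2, against 5.18 and 4.80 log2 with siControl. The siKDM4C arrays stood on both sides of the controls, and the difference of 0.27 log2 did not pass the test (95% interval -0.27 to 0.81; limma, adjusted p = 0.713). The difference turned to -0.21 log2 without siKDM4C replicate 2, the array whose title reads shRNA, and was 0.74 log2 without siKDM4C replicate 1.

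**Figure D1:**
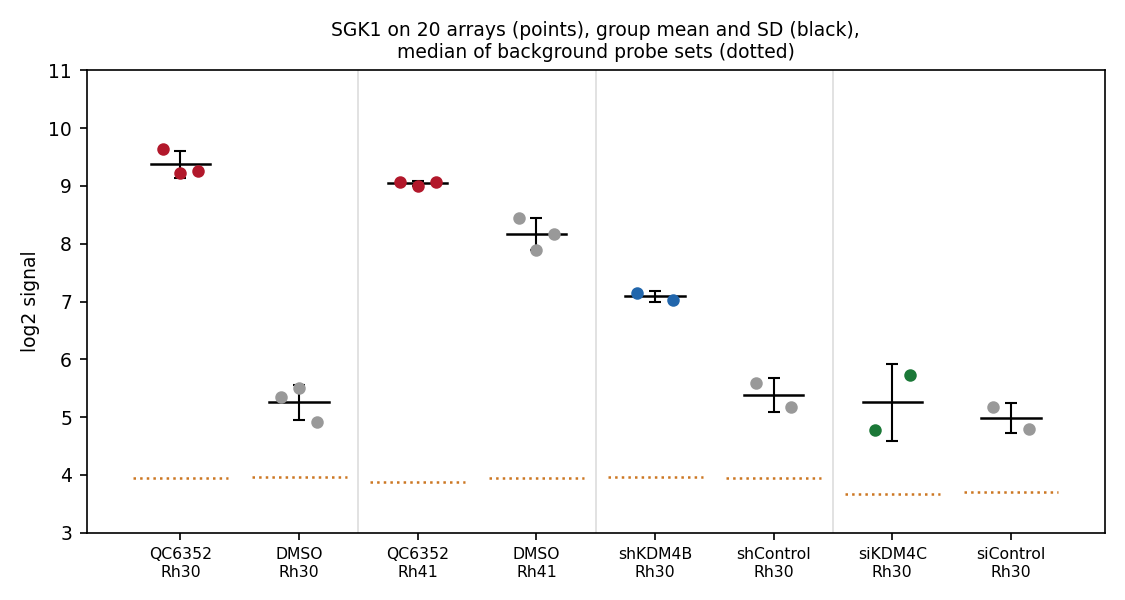
SGK1 log2 signal on each of the 20 arrays (points) by group, with the group mean and SD (black) and the median of the background probe sets (dotted). The QC6352 arrays of both lines lie between 8.99 and 9.64 log2, the DMSO arrays of Rh41 between 7.89 and 8.45 log2, shKDM4B at 7.03 and 7.15 log2, and all other Rh30 arrays between 4.78 and 5.73 log2.

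Over the 8 groups, the order of mean SGK1 signal was QC6352 in Rh30, QC6352 in Rh41, DMSO in Rh41 and shKDM4B, none of which overlapped its neighbour, as the plot of SGK1 by array shows. Below them came shControl, DMSO in Rh30, siKDM4C and siControl, at means of 5.39, 5.26, 5.26 and 4.99 log2, and each of these overlapped the next. By sample name, the Rh30 arrays fall otherwise: SGK1 was at 5.73, 5.35 and 5.51 log2 under QC6352 and at 5.18, 4.80 and 4.78 log2 under DMSO, a difference of 0.61 log2. By sample name, siKDM4C arrays were at 9.22 and 9.26 log2 and siControl arrays at 4.92 and 9.64 log2. The pair of siControl arrays by sample name thus lay far apart.

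The bases before RefSeq starts of SGK1 are shown because the gene is a textbook target of the glucocorticoid receptor and of serum. RefSeq lists 3 starts for SGK1, and 2 of the 250-base windows before them are printed 5′ to 3′ on the gene's strand (GRCh38.p14), with motif matches in capitals. The first is 76.0% G and C and its capitals are 6 GC boxes, GGGCGG or its reverse complement.
SGK1, chr6:134174867-134175116, minus strand: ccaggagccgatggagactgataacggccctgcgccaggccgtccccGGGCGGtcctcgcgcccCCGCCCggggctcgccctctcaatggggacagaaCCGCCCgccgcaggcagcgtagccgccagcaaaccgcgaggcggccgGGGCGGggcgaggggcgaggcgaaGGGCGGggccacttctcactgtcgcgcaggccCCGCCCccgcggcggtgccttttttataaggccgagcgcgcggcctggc
SGK1, chr6:134177862-134178111, minus strand: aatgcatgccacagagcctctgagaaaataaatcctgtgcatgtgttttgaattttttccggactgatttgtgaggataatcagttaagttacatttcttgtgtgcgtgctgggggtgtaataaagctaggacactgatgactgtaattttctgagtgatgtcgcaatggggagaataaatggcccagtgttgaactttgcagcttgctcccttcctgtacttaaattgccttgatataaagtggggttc
The second is 41.6% G and C and holds none of the motifs searched, nor does the third (33.6%, not printed). Both strands were searched for the palindromic core of the glucocorticoid response element, a single arm of that element (AGAACA), the forkhead site GTAAACA, a single sequence of the CArG box of serum response factor, the cyclic AMP response element TGACGTCA, the AP-1 site TGANTCA and the GC box GGGCGG. Over 35116 RefSeq windows of the same length, 0.3275% held the response element core, 12.39% the single arm, which overlaps that core in part, 2.979% the forkhead site, 0.03132% that CArG sequence, 1.646% the cyclic AMP element, 6.573% the AP-1 site and 42.64% the GC box. None of the windows of SGK1, NEDD4L, FKBP5, TSC22D3 and NR3C1 held the response element core, and no window of SGK2 or SGK3 was searched. These letters describe 250 bases only, and glucocorticoid receptor sites can lie elsewhere.

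SGK3, a kinase whose lipid-binding domain carries it to endosomes, also stood higher with QC6352 in Rh30, and it passed the test there. SGK3 signal was 6.83, 6.81 and 6.89 log2 in QC6352 arrays of Rh30, against 5.86, 6.04 and 6.33 log2 in DMSO arrays of Rh30. The groups did not overlap, and the rise was 0.77 log2 (SE 0.15; limma, adjusted p = 0.000541). By sample name the difference was -0.26 log2 (adjusted p = 0.532).

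In Rh41, SGK3 was far lower in both groups. It was at 4.70, 4.88 and 4.79 log2 with QC6352, against 4.63, 4.14 and 4.73 log2 with DMSO, and the difference of 0.29 log2 did not pass the test (95% interval -0.04 to 0.61; limma, adjusted p = 0.231). The DMSO arrays of Rh41 minus those of Rh30 gave -1.57 log2 (SE 0.15; limma, adjusted p = 6.11e-08) and the Rh41 arrays stood only 0.55 log2 above background on average. The response of Rh41 minus that of Rh30 was -0.48 log2 (95% interval -0.94 to -0.02; limma, adjusted p = 0.142), and it passed without DMSO replicate 2 of Rh41 (-0.66 log2, adjusted p = 0.0312). SGK3 was at 6.43 and 6.01 log2 with shKDM4B against 5.99 and 5.75 log2 with shControl, and at 6.67 and 6.75 log2 with siKDM4C against 6.55 and 6.20 log2 with siControl. Neither difference passed (0.35 and 0.33 log2; limma, adjusted p = 0.293 and 0.466). The shKDM4B difference was 0.14 log2 without shKDM4B replicate 1 and 0.56 log2 without shKDM4B replicate 2. The siKDM4C difference was 0.16 log2 without siControl replicate 2 and 0.50 log2 without siControl replicate 1.

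SGK2, the family member otherwise known mainly from liver, kidney and pancreas, stayed close to background throughout, between 4.71 and 5.40 log2 on all 20 arrays. The gene lies on chromosome 20 at 43559027 to 43585627 (GRCh38.p14). SGK2 was at 4.91, 4.93 and 4.71 log2 in QC6352 arrays of Rh30, against 5.16, 5.20 and 5.32 log2 in DMSO arrays of Rh30. The groups did not overlap and SGK2 fell by 0.38 log2 (SE 0.13; limma, adjusted p = 0.0328). That call was lost without DMSO replicate 2, DMSO replicate 3 or QC6352 replicate 3 of Rh30 (adjusted p = 0.0625, 0.11 and 0.128) and with a trended and robust prior (adjusted p = 0.0596), and by sample name the sign was reversed (0.29 log2, adjusted p = 0.31). In the other comparisons the differences were 0.03 log2 with QC6352 in Rh41, -0.16 log2 with shKDM4B and 0.21 log2 with siKDM4C (limma, adjusted p = 0.915, 0.645 and 0.63).

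NEDD4L, the ligase that SGK kinases restrain, moved in opposite directions in the QC6352 groups of Rh41 and the hairpin groups of Rh30. NEDD4L was at 5.15, 5.54 and 5.84 log2 in QC6352 arrays of Rh41, against 6.49, 6.04 and 6.60 log2 in DMSO arrays of Rh41. All QC6352 arrays were below all DMSO arrays, and NEDD4L fell by 0.86 log2 (SE 0.17; limma, adjusted p = 0.00144; by sample name 0.0107). With shKDM4B it was at 8.97 and 8.85 log2, against 8.08 and 7.71 log2 with shControl.

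Both shKDM4B arrays exceeded both controls, and NEDD4L rose by 1.02 log2 (SE 0.21; limma, adjusted p = 0.00357), a call that held by sample name (adjusted p = 0.0218) and was lost without shControl replicate 2 (adjusted p = 0.0542). In QC6352 arrays of Rh30 it was at 8.21, 7.96 and 8.09 log2, against 7.82, 7.77 and 7.87 log2 in DMSO arrays of Rh30. The arrays did not overlap, but the difference of 0.26 log2 did not pass (95% interval -0.10 to 0.63; limma, adjusted p = 0.278). The response of Rh41 minus that of Rh30 was -1.13 log2 (SE 0.25; limma, adjusted p = 0.00283), which is a test of the difference itself. By sample name that difference was -0.92 log2 (adjusted p = 0.0763).

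Within Rh30, the QC6352 response of NEDD4L minus its hairpin response was -0.76 log2 (95% interval -1.33 to -0.18; limma, adjusted p = 0.0539), just short of the threshold. Fitted without the siRNA and Rh41 arrays, that contrast of NEDD4L passed (limma, adjusted p = 0.013). Under DMSO, NEDD4L was lower in Rh41 than in Rh30, with a difference of -1.45 log2 (SE 0.17; limma, adjusted p = 9.02e-07). With siKDM4C it was at 8.07 and 8.14 log2, against 8.02 and 7.46 log2 with siControl. The difference of 0.36 log2 did not pass (limma, adjusted p = 0.486). NEDD4L is at 58044226 to 58401540 of chromosome 18, and its probe set is annotated to 10 transcripts. Of its 5 RefSeq windows, 1 held a single arm of a glucocorticoid response element, and the windows of SGK1, FKBP5, TSC22D3 and NR3C1 held none. Over all 35116 windows 12.39% held that arm, so this match does not set NEDD4L apart. The arm is in capitals at position -78, as the reverse complement of AGAACA, and the window is shown for it.
NEDD4L, chr18:58046976-58047225, plus strand: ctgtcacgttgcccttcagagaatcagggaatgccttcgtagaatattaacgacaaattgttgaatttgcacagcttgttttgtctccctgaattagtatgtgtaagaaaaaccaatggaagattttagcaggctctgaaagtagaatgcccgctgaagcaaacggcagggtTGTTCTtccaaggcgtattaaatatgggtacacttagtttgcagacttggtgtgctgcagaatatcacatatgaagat

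**Figure D2:**
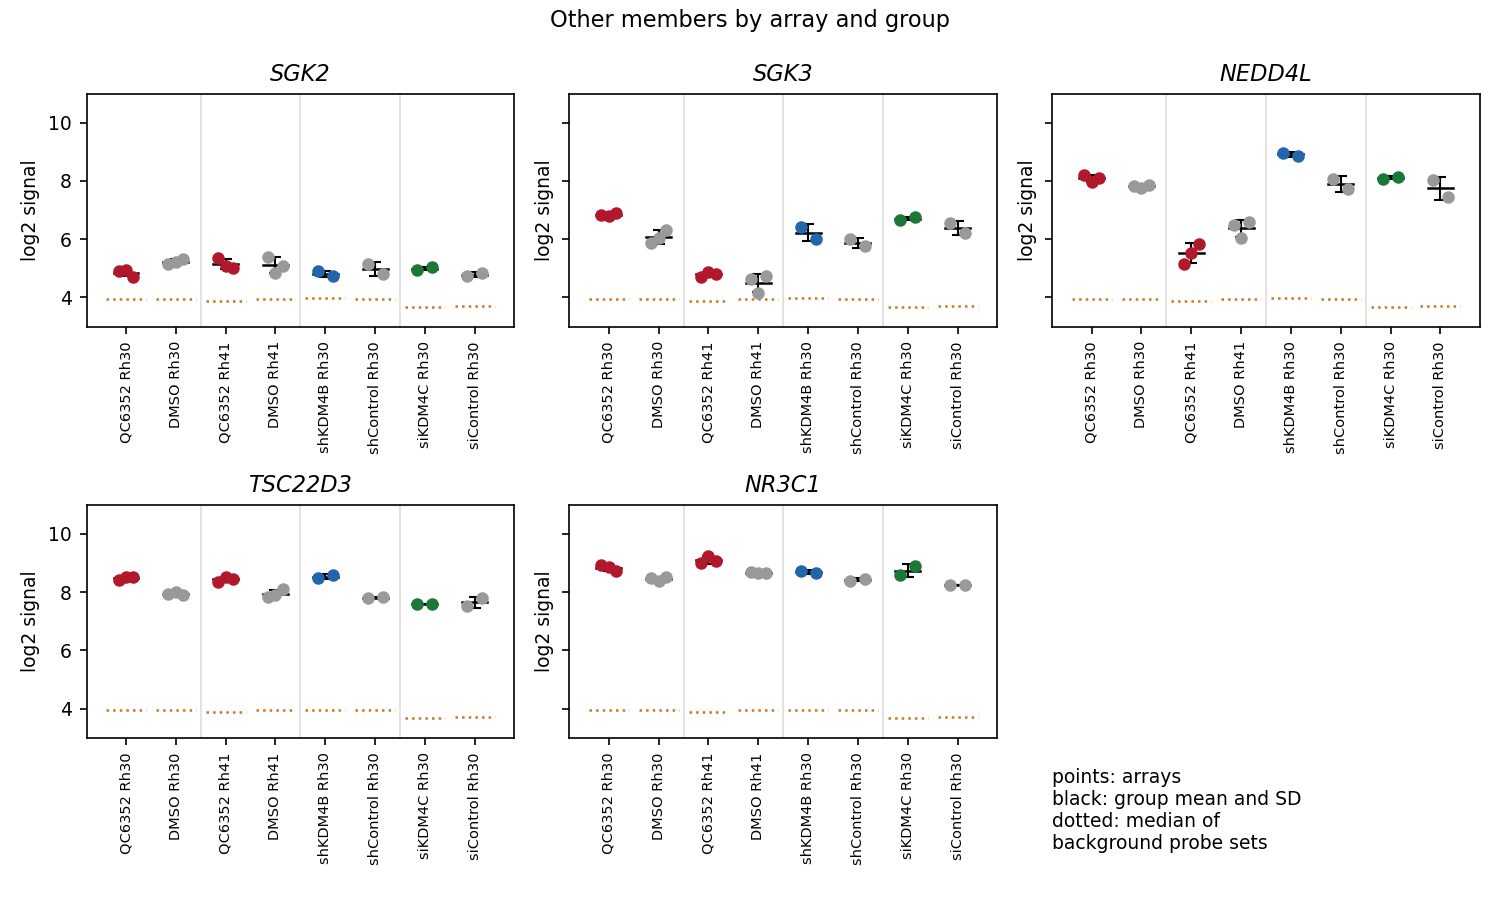
Log2 signal of SGK2, SGK3, NEDD4L, TSC22D3 and NR3C1 on each array (points) by group, with group mean and SD (black) and the median of background probe sets (dotted). SGK2 stays between 4.71 and 5.40 log2 in every group, SGK3 and NEDD4L are lower in Rh41 than in Rh30, and TSC22D3 is above its control with QC6352 in both lines and with shKDM4B.

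TSC22D3, the GILZ gene, rose with QC6352 in both lines and with shKDM4B, as the plot of the other genes by array shows. TSC22D3 was at 8.43, 8.51 and 8.53 log2 in QC6352 arrays of Rh30, against 7.93, 8.0 and 7.89 log2 in DMSO arrays of Rh30. It was at 8.34, 8.53 and 8.45 log2 in QC6352 arrays of Rh41, against 7.85, 7.90 and 8.10 log2 in DMSO arrays of Rh41. It was at 8.47 and 8.60 log2 with shKDM4B, against 7.79 and 7.83 log2 with shControl.

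In none of these 3 comparisons did the groups overlap. TSC22D3 rose by 0.55 log2 (SE 0.10; limma, adjusted p = 0.000117) with QC6352 in Rh30, by 0.49 log2 (SE 0.10; limma, adjusted p = 0.00109) in Rh41 and by 0.73 log2 (SE 0.12; limma, adjusted p = 0.000349) with shKDM4B. The drug response of Rh41 minus that of Rh30 was -0.07 log2 for TSC22D3 (95% interval -0.35 to 0.22; limma, adjusted p = 0.806). The drug response minus the hairpin response in Rh30 was -0.17 log2 (95% interval -0.49 to 0.14; limma, adjusted p = 0.476). For SGK1 these differences were -3.24 and 2.41 log2, given without a test. Each contrast of responses shares its arrays with the comparisons it is made of.

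With siKDM4C, TSC22D3 was at 7.59 and 7.60 log2, against 7.52 and 7.79 log2 with siControl, a difference of -0.06 log2 (95% interval -0.31 to 0.18; limma, adjusted p = 0.887). Under DMSO the lines stood at 7.95 ± 0.13 log2 in Rh41 and 7.94 ± 0.06 log2 in Rh30 (SD, n = 3 each). The Rh41 minus Rh30 difference of 0.01 log2 did not pass (adjusted p = 0.916), but it depended on the scale: with quantile normalization the Rh41 level was 0.27 log2 lower than that of Rh30 (limma, adjusted p = 0.0189). By sample name the Rh30 drug difference was 0.21 log2 (adjusted p = 0.439), and the Rh41 and hairpin calls held (adjusted p = 0.0422 and 0.0228). TSC22D3 is on the minus strand of chromosome X at 107713221 to 107775988. Of its 4 RefSeq windows, 1 held a forkhead site, at position -147 on the strand opposite to the gene and in capitals below. Over all 35116 windows, 2.979% held that site. FOXO factors, which bind such sites and are inhibited when SGK and AKT phosphorylate them, are known activators of this gene, and the window is shown for that reason.
TSC22D3, chrX:107717063-107717312, minus strand: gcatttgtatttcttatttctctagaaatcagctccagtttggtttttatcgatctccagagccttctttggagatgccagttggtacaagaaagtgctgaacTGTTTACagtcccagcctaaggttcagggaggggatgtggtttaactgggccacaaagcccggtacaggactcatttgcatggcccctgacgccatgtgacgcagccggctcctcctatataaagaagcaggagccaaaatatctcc

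NR3C1, the glucocorticoid receptor gene, was expressed in every group, between 8.23 and 9.24 log2. It was at 8.94, 8.85 and 8.73 log2 in QC6352 arrays of Rh30, against 8.48, 8.37 and 8.51 log2 in DMSO arrays of Rh30. It was at 8.99, 9.24 and 9.08 log2 in QC6352 arrays of Rh41, against 8.68, 8.65 and 8.65 log2 in DMSO arrays of Rh41. The groups overlapped in neither line, and NR3C1 rose by 0.39 log2 (SE 0.10; limma, adjusted p = 0.0042) in Rh30 and by 0.44 log2 (SE 0.10; limma, adjusted p = 0.00317) in Rh41. By sample name the Rh30 difference was 0.23 log2 (adjusted p = 0.397). The Rh41 difference was the same 0.44 log2 by sample name, where the pooled spread includes the arrays in conflict (adjusted p = 0.0754), and it passed in a fit of the Rh41 arrays alone (limma, adjusted p = 0.00704).

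With shKDM4B, NR3C1 was at 8.74 and 8.66 log2, against 8.39 and 8.46 log2 with shControl, and the difference of 0.27 log2 did not pass (95% interval 0.02 to 0.53; limma, adjusted p = 0.177). With siKDM4C it was at 8.58 and 8.91 log2, against 8.24 and 8.23 log2 with siControl, a difference of 0.50 log2 (SE 0.12; limma, adjusted p = 0.0662). In both knockdowns the arrays did not overlap those of the control, but the share of all genes that do so was not counted. SGK2, close to background, did not overlap with siKDM4C either (4.95 and 5.03 against 4.72 and 4.84 log2; limma, adjusted p = 0.63). The siKDM4C difference of NR3C1 passed without the lowest 40% of probe sets (limma, adjusted p = 0.0252) and with a trended and robust prior (0.0209). It did not pass in the compared arrays alone (limma, adjusted p = 0.733), with the replicate block (0.736) or by sample name (0.066 log2, adjusted p = 0.917). Leaving out 1 array gave 0.34 to 0.67 log2, the lowest without siKDM4C replicate 2 and the highest without siKDM4C replicate 1. NR3C1 lies on the minus strand of chromosome 5 at 143277931 to 143435512 (GRCh38.p14). The RefSeq windows of NR3C1, 7 in number, held GC boxes in 5, a forkhead site in 1 of those, and an AP-1 site in another window. Over all 35116 windows the shares with these motifs were 42.64%, 2.979% and 6.573%.

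Counted together, 3 of the 5 genes tested with QC6352 in Rh30 rose (SGK3, TSC22D3 and NR3C1) and 1 fell (SGK2), where 19.9% of all genes rose, 16.5% fell and 36.3% did either. With QC6352 in Rh41, 3 of 6 rose (SGK1, TSC22D3 and NR3C1) and 1 fell (NEDD4L), where 10.9% of all genes rose, 8.8% fell and 19.7% did either. With shKDM4B, 2 of 5 rose (NEDD4L and TSC22D3) and none fell, where 5.26% rose, 6.31% fell and 11.6% did either. With siKDM4C none of 6 passed in limma, 1 of them (NR3C1) had an unadjusted p under 0.05, and 0.458% of all genes passed. Between the drug responses of the lines 1 of 5 differed (NEDD4L, lower in Rh41), where 9.45% of all genes were lower, 10.5% higher and 20% either. Between the drug and the hairpin response in Rh30 none of 5 differed in limma, 1 (NEDD4L) had an unadjusted p under 0.05, and 24.5% of all genes differed, 13% with a higher and 11.4% with a lower drug response. Under DMSO, 2 of 5 were lower in Rh41 (SGK3 and NEDD4L), where 16.8% of all genes were lower, 40.7% higher and 57.6% either. Those last shares depend on the scale: with quantile normalization 4750 genes were higher and 4919 lower, against 7202 higher and 2978 lower as deposited. The genes were picked with results of these arrays known, so none of these counts is an independent test.

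**Figure D3:**
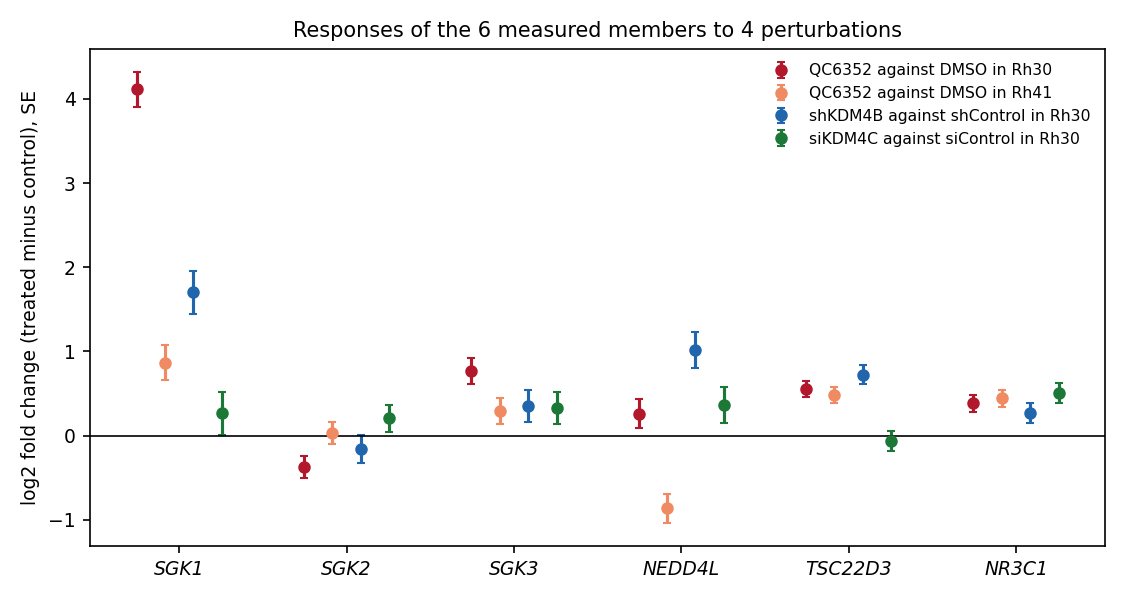
Log2 fold change (treated minus control group mean) with its standard error for the 6 measured genes in 4 comparisons. SGK1 spans 0.27 to 4.11 log2, TSC22D3 stands at 0.49 to 0.73 log2 in all but the siKDM4C comparison, and NEDD4L stands at 1.02 log2 with shKDM4B and -0.86 log2 with QC6352 in Rh41.

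Other genes that glucocorticoids are known to induce in various tissues moved in part. The gene lists described from here on, 9 in all with 113 measured genes, were counted with groups by title, which gave 58 calls with QC6352 in Rh30, 36 in Rh41 and 24 with shKDM4B. By title 6427, 3479 and 2047 of all 17687 genes were called in these comparisons. By sample name the calls were 1, 14 and 4, where 89, 1537 and 725 of all genes were called. The Rh41 and hairpin groups hold the same arrays by either label. Their log2 differences were therefore unchanged, while the pooled spread by sample name includes the arrays in conflict. Between the drug responses of the lines the calls were 48 by title and 7 by sample name, where 3534 and 762 of all genes were called. The shares of all genes that rose and fell, for reading the counts, were 10.9% and 8.8% with QC6352 in Rh41 and 5.26% and 6.31% with shKDM4B. Of 30 such genes, 27 were measured (PER1, BIRC3 and LPIN1 were not named). With QC6352 in Rh30, 10 rose and none fell (37.0% and 0%, against 19.9% and 16.5% of all genes; median 0.19 log2, against 0.05 log2). The largest rises were in RGS2, which curbs G protein signalling, at 3.06 log2 (SE 0.12; limma, adjusted p = 1.04e-12), and DUSP1, a phosphatase of MAP kinases, at 1.89 log2 (SE 0.11; limma, adjusted p = 1.11e-10). GLUL, CRISPLD2, GADD45B, FBXO32, NFKBIA, DDIT4, MT1X and MT2A also rose. The other 17 did not pass, among them KLF9 at -0.04 log2 and ERRFI1 at -0.16 log2 (limma, adjusted p = 0.843 and 0.157), named after their values were seen. DUSP1, RGS2, NFKBIA and GADD45B respond to serum and stress as well. By sample name none of the 27 was called with QC6352 in Rh30 (limma; 5 with an unadjusted p under 0.05), where 89 of all 17687 genes were called.

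In Rh41 the same list had 4 rises and 1 fall with QC6352 (median 0.08 log2, against 0.02 log2). CAVIN2, a protein of caveolae, rose by 1.53 log2 (SE 0.11), RGS2 by 1.24 log2 (SE 0.12), DUSP1 by 0.99 log2 and ANXA1, the annexin known to carry part of the anti-inflammatory effect of glucocorticoids, by 0.51 log2. KLF9 fell by 0.41 log2 (SE 0.12; limma, adjusted p = 0.0259). With shKDM4B, 5 rose and 2 fell (median 0.13 log2, against 0.03 log2). RGS2 rose by 0.94 log2 (SE 0.15) and DUSP1 by 0.75 log2 (SE 0.13), with MT2A, MT1X and GADD45B behind them. CAVIN2 fell by 1.08 log2 (SE 0.14) and GLUL, glutamine synthetase, by 0.53 log2 (SE 0.11; limma, adjusted p = 0.00276). In Rh30 with QC6352, GLUL had risen by 1.14 log2 (SE 0.09).

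Among partners of the glucocorticoid receptor and enzymes that handle steroids, 12 of 15 were measured, and with QC6352 in Rh30 1 rose and 5 fell (8.33% and 41.7%, against 19.9% and 16.5% of all genes; median -0.01 log2, against 0.05 log2). The coactivators NCOA1 and NCOA2 fell by 1.16 and 0.70 log2, and the chaperone genes HSP90AB1, PTGES3 and STIP1 by 0.63, 0.63 and 0.34 log2. HEXIM1, an inhibitor of transcription elongation that also binds the receptor, rose by 2.10 log2 (SE 0.14). In Rh41 1 rose (HEXIM1, 1.15 log2) and 3 fell (FKBP4, NCOA1 and HSP90AB1, by 0.41, 0.30 and 0.24 log2; median -0.25 log2). With shKDM4B 1 fell, the chaperone HSP90AA1, by 0.85 log2 (SE 0.16; limma, adjusted p = 0.00182). The mineralocorticoid receptor gene NR3C2 had means of 3.62 and 3.45 log2 with QC6352 and DMSO in Rh30 and of 4.97 and 4.75 log2 with QC6352 and DMSO in Rh41, and passed in none of these 3 comparisons. The enzyme genes HSD11B1 and HSD11B2, which activate and inactivate cortisol, did not pass either.

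Upstream of the SGK kinases, 14 of 18 genes of PI3K, PDPK1 and mTORC2 signalling were measured. With QC6352 in Rh30 2 rose and 4 fell (14.3% and 28.6%, against 19.9% and 16.5% of all genes; median -0.07 log2, against 0.05 log2). MAPKAP1, which encodes the mTORC2 subunit SIN1, fell by 1.64 log2 (SE 0.13; limma, adjusted p = 8.59e-09), and PRR5, another mTORC2 partner, by 0.86 log2 (SE 0.11). PDPK1, the kinase that phosphorylates the activation loop of SGK, rose by 0.34 log2, and PHLPP2, a phosphatase of the hydrophobic motif of AKT, by 0.40 log2. In Rh41 2 rose and 4 fell as well: MAPKAP1 fell by 0.62 log2, PRR5 by 0.54 log2, MLST8 by 0.47 log2 and PDPK1 by 0.45 log2, while PHLPP1 rose by 0.81 log2 and RICTOR by 0.43 log2. PDPK1 thus differed between the drug responses of the lines, by -0.79 log2 for Rh41 minus Rh30 (SE 0.15; limma, adjusted p = 0.00104). By sample name none of the 14 genes was called in that contrast (limma; 2 with an unadjusted p under 0.05), where 762 of all 17687 genes were called. With shKDM4B PIK3CD rose by 0.53 log2, while PIK3R1 and MTOR fell by 0.71 and 0.55 log2. Of the AKT genes, 2 of 3 were measured: AKT1 rose by 0.43 log2 with QC6352 in Rh30 and fell by 0.55 log2 in Rh41, and AKT2 fell by 0.40 log2 in Rh30.

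Among SGK substrates and transport proteins under their control, 17 of 18 were measured, and with QC6352 in Rh30 5 rose and 4 fell (29.4% and 23.5%, near the 19.9% and 16.5% of all genes; median -0.03 log2, against 0.05 log2). WNK4, a kinase that regulates salt transport, rose by 1.32 log2 (SE 0.13) and SLC6A6, the taurine carrier, by 1.13 log2 (SE 0.10). NDRG1, whose phosphorylation is a common readout of SGK activity, rose in RNA by 0.84 log2 (SE 0.15; limma, adjusted p = 0.000154). GSK3B fell by 1.49 log2 (SE 0.10) and FOXO1 by 0.94 log2 (SE 0.09), although whether the FOXO1 probe set reads the PAX3-FOXO1 transcript was not tested. In Rh41 2 rose, SLC6A6 by 1.54 log2 and NDRG1 by 0.53 log2, and 5 fell, with FOXO1 at -1.14 log2 and GSK3B at -0.55 log2. With shKDM4B SLC6A6 rose by 0.64 log2 and SLC1A5, a glutamine carrier, by 0.59 log2, and 15 did not pass. The 3 sodium channel subunit genes SCNN1A, SCNN1B and SCNN1G, the classic targets of NEDD4L, passed in none of these 3 comparisons, with differences from -0.18 to 0.48 log2.

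The relatives of NEDD4L were all measured, 10 of 10. With QC6352 in Rh30 none rose and 3 fell (0% and 30%, against 19.9% and 16.5% of all genes), NEDD4 by 0.69 log2 (SE 0.13), WWP1 by 0.67 log2 (SE 0.17) and WWP2 by 0.33 log2. In Rh41 3 rose and none fell: SMURF2 by 0.63 log2 (SE 0.11), ITCH by 0.35 log2 and the adaptor NDFIP1 by 0.32 log2. With shKDM4B NEDD4 fell by 1.03 log2 (SE 0.16; limma, adjusted p = 0.000203) and SMURF1 rose by 0.48 log2. NEDD4L and its closest relative NEDD4 therefore moved in opposite directions with the hairpin. Of the TSC22 family beside TSC22D3, TSC22D1 rose by 0.84 log2 with QC6352 in Rh30, by 0.53 log2 in Rh41 and by 0.55 log2 with shKDM4B, TSC22D4 rose by 0.60 log2 in Rh30 and TSC22D2 fell by 0.24 log2 in Rh41.

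**Figure D4:**
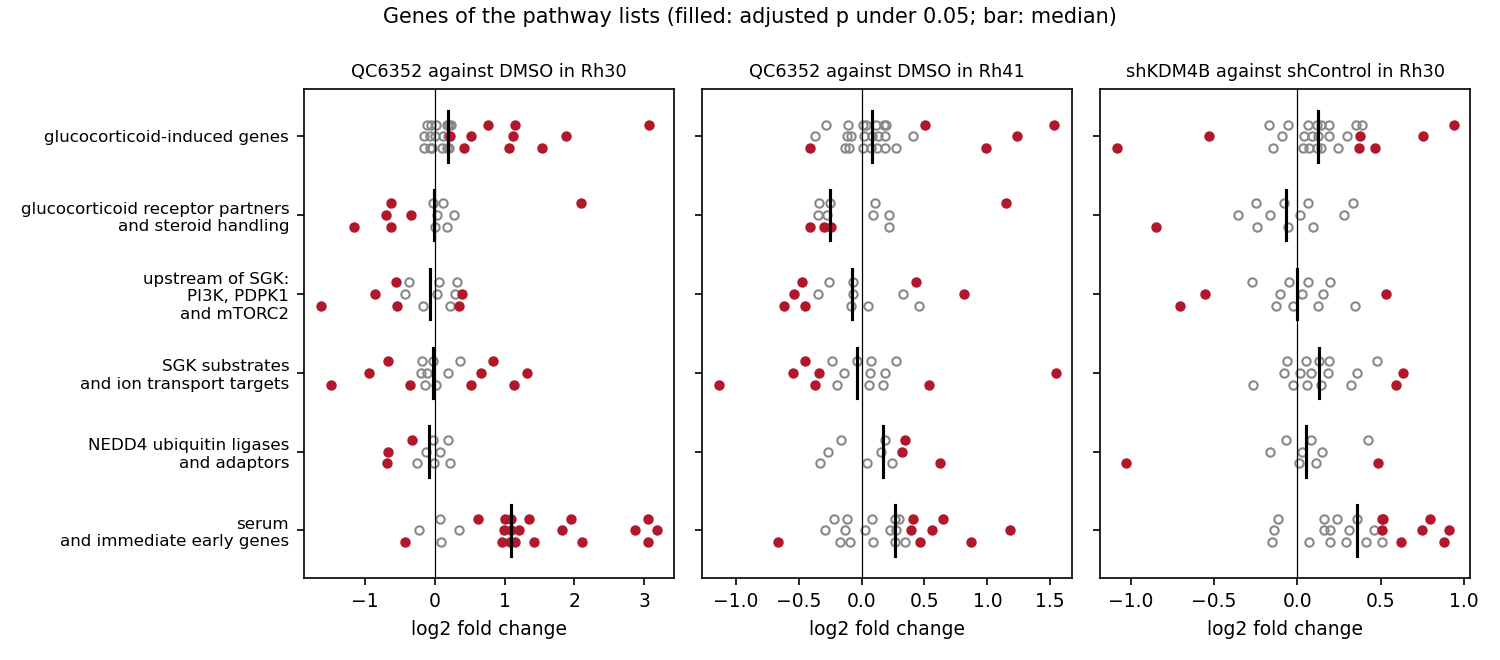
Log2 fold change of each measured gene (points, filled where the limma adjusted p was under 0.05) in 6 pathway lists, with the median of the list (bar), for 3 comparisons. The horizontal axes differ in range. Serum and immediate early genes have the highest median with QC6352 in Rh30, at 1.09 log2, and glucocorticoid-induced genes stand at 0.19 log2.

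SGK1 is also an immediate early gene of the serum response, so genes of that kind were set beside it. Of 24, 23 were measured, and with QC6352 in Rh30 18 rose and 1 fell (78.3% and 4.35%, against 19.9% and 16.5% of all genes; median 1.09 log2, against 0.05 log2). NR4A1, NR4A3, ATF3 and NR4A2 rose by 3.19, 3.06, 3.05 and 2.87 log2, JUNB by 2.12 log2 and ZFP36 by 1.96 log2, while MYC fell by 0.43 log2. In Rh41 7 rose and 1 fell (median 0.27 log2, against 0.02 log2), with CCN1 at 1.18 log2, CCN2 at 0.87 log2 and MYC at -0.66 log2. With shKDM4B 8 rose and none fell (median 0.35 log2, against 0.03 log2), with ATF3 at 0.91 log2 and CCN1 at 0.88 log2 ahead and MYC higher by 0.62 log2. Between the drug responses of the lines, 16 of the 23 were lower in Rh41 and none higher (limma), where 9.45% of all genes were lower. By sample name, the counts for these genes were none with QC6352 in Rh30 (limma; 2 with an unadjusted p under 0.05), 3 rises and 1 fall in Rh41, 1 rise with shKDM4B, and 1 higher and 1 lower between the drug responses of the lines. In the same order, 89, 1537, 725 and 762 of all 17687 genes were called by sample name. In the Rh41 and shKDM4B comparisons the log2 differences were the same by either label, and the pooled spread by sample name includes the arrays in conflict. Of genes of osmotic stress, 5 of 7 were measured and only HSPA4L passed with QC6352 in Rh30 (0.71 log2), at 4.75 log2 under drug and 4.03 log2 under DMSO. In Rh41 none of the 5 passed in limma (2 with an unadjusted p under 0.05), and with shKDM4B none did (0 with an unadjusted p under 0.05). With siKDM4C none of the 113 genes measured in these 9 lists passed in limma, and 19 had an unadjusted p under 0.05. Of all 17687 genes, only 81 (0.458%) passed there and 2446 had an unadjusted p under 0.05, so these counts do not set the lists apart.

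Genes were also ranked by how closely their 8 group means followed those of SGK1, among the 8297 genes whose group means spanned at least 1 log2. The 5 nearest were PADI2 (Pearson r = 0.988), an enzyme that converts arginine to citrulline in proteins, FTL (0.985), the ferritin light chain, ZNF627 (0.984), RGS2 (0.983) and ZNF14 (0.974). The 8 points come from 2 cell lines, and array medians differed between the siRNA, other Rh30 and Rh41 arrays, so the r describes likeness only. The part of that offset in each r was not tested. RGS2 had the widest span of the 5, with means of 8.05 log2 with QC6352 and 4.98 log2 with DMSO in Rh30, and 8.02 log2 with QC6352 and 6.78 log2 with DMSO in Rh41. It was at 5.62 log2 with shKDM4B and 4.69 log2 with shControl. Of the followed genes, TSC22D3 had an r of 0.801 with SGK1 and NR3C1 one of 0.793, with lower values for SGK2 (0.058), SGK3 (-0.386) and NEDD4L (-0.469). The group means of TSC22D3, NR3C1 and SGK2 spanned less than 1 log2, so these 3 genes were outside the ranking. How many genes reach such an r was not counted. Under DMSO, TSC22D3 differed between the lines by 0.01 log2 and SGK1 by 2.91 log2.

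**Figure D5:**
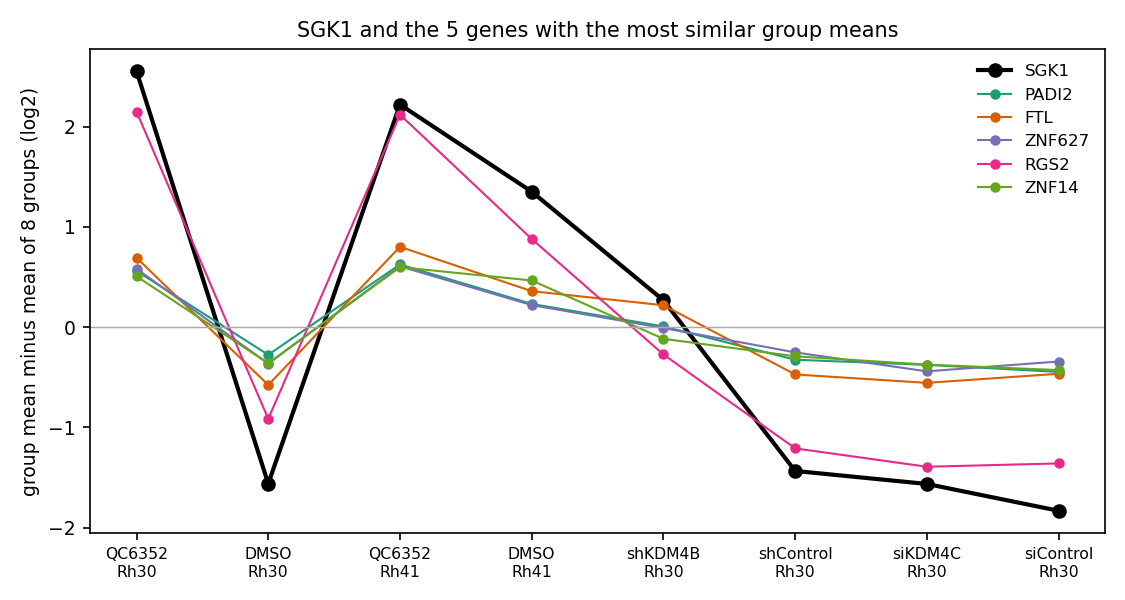
Group mean minus the mean of the 8 groups (log2) for SGK1 (black) and the 5 genes with the highest Pearson r of group means. RGS2 has the widest span of the 5, and PADI2, FTL, ZNF627 and ZNF14 vary over a smaller range than SGK1.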

How the data were processed

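RNA was hybridised to Clariom S human arrays and deposited by the authors as log2 signals, 1 value per probe set and array. GCOS is named per the submitters' processing notes, and for its version, background correction, summarization and normalization the sources used here give nothing. Of 24351 probe sets, 17709 had 1 gene symbol in the platform's gene table and 6642 had none. Second probe sets of a gene (22) were left out by lower mean, which left 17687 genes.

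The log2 values were used as deposited. A model of 8 group means over 20 arrays was fitted in R 4.3.3 by lmFit and eBayes of limma 3.58.1, with 12 residual degrees of freedom before moderation, and each p-value was adjusted by Benjamini-Hochberg over all 17687 genes, with a threshold of 0.05. The code was first tested on simulated data. The labels call the arrays biological replicates and do not say that they are separate cultures, so p-values measure the spread between these arrays, and the number of arrays limits the precision. The share of all genes whose groups did not overlap was not counted, so non-overlap describes the arrays and is no test. Groups were taken from titles, except that of siKDM4C replicate 2, which was taken from its source name, with sample names as an alternative. Other alternatives were quantile normalization, median centring, leaving out the lowest 40% of probe sets, a trended and robust prior, the compared arrays alone, a replicate block and leaving out each array.

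The genes and lists were chosen with earlier results of these data known. The genes named are the 7 followed genes, KDM4 genes and MYOG as checks of the labels, up to 2 per direction and list with the largest called change, the 5 most like SGK1 in group means, and list members on which a result turns. Further list members were named after their values were seen. Promoter windows are the 250 bases before a RefSeq start on GRCh38.p14, and no genome or protein sequence was used here.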

Additional observations from a re-analysis of the deposited data

Results flagged for a closer look

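The QC6352 response of NEDD4L differed between the lines by -1.13 log2, Rh41 minus Rh30 (SE 0.25; limma interaction test, adjusted p = 0.00283), and by sample name the difference was -0.92 log2 (adjusted p = 0.0763). NEDD4L fell in 3 of 3 QC6352 arrays of Rh41 relative to every DMSO array of that line, and lay above every DMSO array in 3 of 3 QC6352 arrays of Rh30, where the difference did not pass. With groups of 2 or 3 arrays, single arrays were not screened for outlying values.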

How the results depend on the processing

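With sample names in place of titles, the counts of called genes became 89 for QC6352 in Rh30, 1537 for QC6352 in Rh41, 725 for shKDM4B, 0 for siKDM4C (limma; 2203 with an unadjusted p under 0.05), 762 for the difference between the lines' responses and 613 for drug minus hairpin. For QC6352 in Rh41 and for shKDM4B the compared arrays were the same, and only the pooled spread took in the arrays in conflict. By sample name, signs were reversed for SGK2 (0.29 log2) and SGK3 (-0.26 log2) with QC6352 in Rh30, and for NEDD4L (-0.020 log2), SGK2 (-0.30 log2) and TSC22D3 (0.36 log2) with siKDM4C. They were also reversed for SGK1 (0.26 log2), SGK2 (-0.26 log2), SGK3 (0.54 log2) and TSC22D3 (0.28 log2) between the lines' responses. The same held for SGK1 (-1.09 log2), SGK2 (0.45 log2), SGK3 (-0.60 log2) and NR3C1 (-0.038 log2) in drug minus hairpin, and for SGK2 (0.27 log2) between the lines under DMSO. The SGK1 call in Rh41 was lost by sample name (adjusted p = 0.538), where the pooled spread includes the arrays in conflict. In a fit of the Rh41 arrays alone, which holds none of them, it had an adjusted p of 0.00297. Under DMSO, the line difference of NR3C1 became -0.066 log2 and that of TSC22D3 -0.27 log2 with quantile normalization, and -0.052 and -0.25 log2 with median centring. For shKDM4B, 826 genes were called from the compared arrays alone and 563 with the replicate block. For siKDM4C the counts were 338 without the lowest 40% of probe sets, 438 with the trended prior, 0 from the compared arrays alone (1191 with an unadjusted p under 0.05) and 38 with the replicate block. Leaving out 1 array gave 1039 to 1557 calls for shKDM4B and 8 to 1789 for siKDM4C, the highest without siKDM4C replicate 1 and the lowest without siControl replicate 2. Over those fits, SGK1 with siKDM4C ranged from -0.21 to 0.74 log2, SGK2 from -0.095 to 0.18 log2 with QC6352 in Rh41, from -0.33 to 0.014 log2 with shKDM4B and from -0.27 to 0.011 log2 between the lines under DMSO. TSC22D3 ranged from -0.19 to 0.072 log2 with siKDM4C, from -0.11 to 0.0082 log2 between the lines' responses and from -0.060 to 0.062 log2 between the lines under DMSO, and NR3C1 from -0.011 to 0.11 log2 between the lines' responses. The cause of these changes was not tested, other than that fits of fewer arrays have fewer degrees of freedom. Deviations of same-numbered arrays from their group means correlated at 0.26, 0.06 and 0.08 in the drug groups of Rh30 and at -0.19, -0.06 and -0.08 in those of Rh41. The values were 0.09 in the hairpin groups and -0.21 in the siRNA groups. Differently numbered arrays were not compared, so whether replicate numbers pair the arrays was not tested. NEDD4L in drug minus hairpin passed in the compared arrays alone both with the replicate block (adjusted p = 0.0138) and without it (0.013). Group means of SGK2 lay 0.85 to 1.32 log2 above background and those of SGK3 in Rh41 0.55 to 0.91 log2, which limits what could be detected for them.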
